A study of Mus musculus with 16 samples.

Results

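The mitochondrial ribosomal protein genes are described here across a mouse lung cancer cell line grown in 2 ways with 2 hairpins. A gene was taken as a member when its symbol was Mrpl or Mrps followed by a number and at most 1 letter, a choice made on the symbol alone. This gave 77 of the 12321 genes in the table (0.625%), and all 77 were among the 12320 genes tested. The gene Mrpl53 fits the naming rule but was not among the genes of the table, so it was not analysed here. By textbook knowledge, 50 members encode proteins of the large ribosomal subunit and 26 encode proteins of the small subunit. The remaining member, Mrps36, carries a ribosomal name but is now known as a component of the oxoglutarate dehydrogenase complex.

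The cells were LKR10, a mouse lung adenocarcinoma line, and 16 RNA libraries were sequenced, 4 in each of 4 groups. All cells had received a pLKO lentivirus that expressed a short hairpin RNA, were selected in 4 µg/ml puromycin for 48 h and were grown for a further 96 h. The hairpin targeted GFP in the controls (shGFP) or Ankrd35, which encodes a protein with ankyrin repeats (shAnkrd35), and each was grown as an attached monolayer (2D) or in 0.5% methylcellulose, a viscous medium without attachment (3D). The groups are thus 2D shGFP, 2D shAnkrd35, 3D shGFP and 3D shAnkrd35, and all carry a vector and passed the drug selection. The labels name 1 cell line and no separate clones, hairpin sequences or cultures, so every p-value is set against the scatter of 4 libraries per group, and that scatter may be technical.

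Mitochondria have their own ribosome, which translates the few membrane proteins of the respiratory chain that are still encoded in mitochondrial DNA. All of its proteins are encoded in the nucleus, made on cytosolic ribosomes and imported, while its RNAs come from mitochondrial DNA. Some of its proteins descend from the bacterial ribosome, and others exist only in mitochondria and cover or replace parts of the shortened ribosomal RNA.

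The genes of the table held 13.82 to 28.72 M counted reads per library, and the members took 0.229% to 0.305% of them. Ankrd35 had 2 to 7 reads per library in 2D shGFP, 1 to 7 in 2D shAnkrd35, 14 to 17 in 3D shGFP and 9 to 12 in 3D shAnkrd35. In CPM (counts per M reads of the scaled library), its level in 3D was 0.597 ± 0.055 with shGFP and 0.501 ± 0.093 with shAnkrd35 (SD, n = 4). Those few reads do not settle the knockdown in 2D or in 3D, so the libraries are called by their labels throughout. Of 11 epithelial and lung carcinoma markers 7 were in the table, with summed levels of 5273 to 5774 CPM in 2D shGFP, 7041 to 8567 in 2D shAnkrd35, 6006 to 6186 in 3D shGFP and 6612 to 7189 in 3D shAnkrd35. The lineage markers Nkx2-1, Sftpc and Sftpb were not in it. Markers of lymphocytes (0 of 7) and erythroid cells (0 of 4) were not in the table, and Vwf was the endothelial marker present, at 0.99 to 5.66 CPM. Fibroblast markers (4 of 7) summed to 11.2 to 43.4 CPM, and macrophage markers (3 of 6) summed to 41.4 to 42.7 CPM in 2D shGFP and 79.5 to 87.9 CPM in 2D shAnkrd35, and to 116 to 124 and 130 to 152 CPM in 3D shGFP and 3D shAnkrd35. Their part in the results was not tested. In bulk RNA, fewer cells of a type and less RNA per cell cannot be told apart.

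Members were moderately expressed. Their mean levels over the 16 libraries ran from 3.74 CPM for Mrps18c (chosen after its values were seen) to 77.1 CPM for Mrpl13, with a median of 32.1 CPM. Divided by merged exonic length, the median was 12.5 CPM per kb, against 374 CPM per kb for 82 cytosolic ribosomal protein genes, 47.4 for 74 nuclear genes of the respiratory chain and 6.78 for all genes. Per length, the highest members were Mrpl2 (55.4 CPM per kb), Mrpl34 (52.9) and Mrpl28 (48.3), all large subunit proteins of bacterial ancestry. The lowest were Mrpl33 (1.01), Mrpl47 (2.67) and Mrpl48 (2.71). Lengths were those of all annotated exons merged, and with the longest transcript instead the members' median became 16.1 CPM per kb. The highest member was then Mrps21 of the small subunit (72.6 CPM per kb, chosen after its values were seen), ahead of Mrpl2 (62.9).

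The members lie on 17 chromosomes, with 11 on chromosome 11 and 8 on chromosome 17. Among them, 18 of 77 (23.4%) had the start of another coding gene within 1000 bases on the opposite strand, pointing away, against 10.9% of 11344 coding genes in the table. Exons of an opposite-strand gene overlapped 27 members (35.1%, against 31.7% of coding genes). These include Mrps11 and Mrpl46, which overlap each other, Mrpl43, which overlaps the helicase gene Twnk, and Mrpl24, Mrpl48, Mrpl27, Mrpl12, Mrpl19, Mrpl13, Mrpl18, Mrpl47, Mrpl49, Mrps25, Mrps27 and Mrps30 among members named with values. On the same strand, 7 members share exonic bases with another gene (9.1%, against 8.2%), among them Mrps18c (Gm43511) and Mrpl33 (Gm43809). Strand cannot separate reads in those shared bases. If strand was not used in counting, which is not given in the sources used here, reads of opposite-strand partners cannot be told apart either. Mrpl23, Mrpl48 and Mrps36 have annotated pseudogene copies, so their counts are uncertain to the extent that reads were shared.

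Promoter sequence, the 250 bases before the annotated start in RefSeq's GRCm38.p6 table, was matched for 68 of the 77 members. It was read because regulators of nuclear mitochondrial genes bind known motifs there. Searched on both strands, the NRF1 motif GCGCATGCG was in 7 of 68 members (10.3%), against 3.2% of 9309 genes of the expression table and 1.5% of all 27025 promoters of the same length. The ETS motif CCGGAAG, which GABPA binds, was in 16 (23.5%, against 14.7% and 7.1%), and the YY1 motif AAGATGGC was in 4 (5.9%, against 2.1% and 1.6%). The E-box CACGTG was in 5 (7.4%, against 8.6% and 6.0%), the CRE motif TGACGTCA in 2 (2.9%, against 2.9% and 1.6%) and the NF-Y motif CCAAT in 24 (35.3%, against 36.8% and 34.5%). None of the 68 had TATAAA in the last 50 bases, against 1.5% and 2.9%. A match is a description of letters and not a binding site.

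Promoters of 5 members are shown 5′ to 3′ on the gene's own strand, with capitals where any of the 6 motifs matched on either strand. Mrpl22 (chr11:58171414-58171663, plus strand) and Mrpl39 (chr16:84735245-84735494, minus strand) rose with the Ankrd35 hairpin in 2D and hold NRF1 matches. Mrpl11 (chr19:4962056-4962305, plus strand) rose as well and holds no NRF1, ETS or YY1 match. Mrpl32 (chr13:14613038-14613287, minus strand) holds 3 NRF1 matches and a YY1 match, with no call in any comparison of the deposited values. Mrpl24 (chr3:87919294-87919543, plus strand) was the 1 member that fell in 2D as deposited and holds none of the 6 motifs.
Mrpl22: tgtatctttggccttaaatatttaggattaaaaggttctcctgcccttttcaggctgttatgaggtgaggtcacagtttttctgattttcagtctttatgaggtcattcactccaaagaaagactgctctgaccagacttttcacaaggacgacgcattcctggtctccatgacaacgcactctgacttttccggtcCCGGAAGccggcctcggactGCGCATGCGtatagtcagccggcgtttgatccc
Mrpl39: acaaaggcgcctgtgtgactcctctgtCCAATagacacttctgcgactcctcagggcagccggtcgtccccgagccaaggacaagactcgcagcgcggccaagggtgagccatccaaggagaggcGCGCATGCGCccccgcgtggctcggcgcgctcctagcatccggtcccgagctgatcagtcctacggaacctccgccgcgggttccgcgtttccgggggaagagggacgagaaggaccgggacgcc
Mrpl11: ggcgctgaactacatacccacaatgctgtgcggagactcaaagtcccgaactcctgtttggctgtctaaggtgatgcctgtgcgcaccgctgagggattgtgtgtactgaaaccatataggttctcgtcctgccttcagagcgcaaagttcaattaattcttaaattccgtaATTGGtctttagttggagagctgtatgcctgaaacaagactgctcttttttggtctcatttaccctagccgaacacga
Mrpl32: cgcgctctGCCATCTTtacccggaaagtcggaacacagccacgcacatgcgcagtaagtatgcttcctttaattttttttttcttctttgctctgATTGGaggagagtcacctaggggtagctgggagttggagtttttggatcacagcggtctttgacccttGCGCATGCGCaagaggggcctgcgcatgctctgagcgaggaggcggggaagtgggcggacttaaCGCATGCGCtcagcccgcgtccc
Mrpl24: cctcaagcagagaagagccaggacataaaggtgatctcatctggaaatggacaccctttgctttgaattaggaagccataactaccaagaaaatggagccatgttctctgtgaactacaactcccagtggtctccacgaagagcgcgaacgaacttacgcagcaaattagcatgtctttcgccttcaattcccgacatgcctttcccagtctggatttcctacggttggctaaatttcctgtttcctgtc
Positions are those of a match's first base on the gene's strand, relative to the RefSeq start. The GENCODE starts used for coordinates elsewhere differ from it. All of the Mrpl39 stretch lies inside its GENCODE gene, as do the Mrpl11 match and the NRF1 matches of Mrpl32. The other stretches overlap their GENCODE genes in part. In Mrpl22 the capitals mark the ETS motif at -53 and the NRF1 motif at -33. In Mrpl39 they mark CCAAT at -223 and NRF1 matches on the forward strand at -125 and the reverse strand at -124, which overlap. In Mrpl11 they mark CCAAT on the reverse strand at -78. In Mrpl32 they mark YY1 at -242, CCAAT at -155 (both reverse), overlapping NRF1 matches at -87 (forward) and -86 (reverse) and an NRF1 match at -23 (reverse).

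Mitochondrial ribosomal proteins took a larger share of the RNA in 2D cells labelled shAnkrd35 than in 2D shGFP cells. Of 77 members, 50 were higher at an adjusted p under 0.05 in limma, a share of 64.9% beside 29.0% of all genes tested, and 1 was lower, against 28.8% of all genes. The median log2 fold change was 0.31 (range -0.15 to 0.77), beside 0.01 over all genes. The groups did not overlap for 39 higher members (22.3% of all genes) and 1 lower member (17.5%). Large subunit genes were higher in 30 of 50 cases and small subunit genes in 19 of 26, with medians of 0.28 and 0.34. Proteins of bacterial ancestry and those specific to mitochondria both took part: 16 of 29 and 14 of 21 in the large subunit, and 12 of 16 and 7 of 10 in the small subunit.

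**Figure D1:**
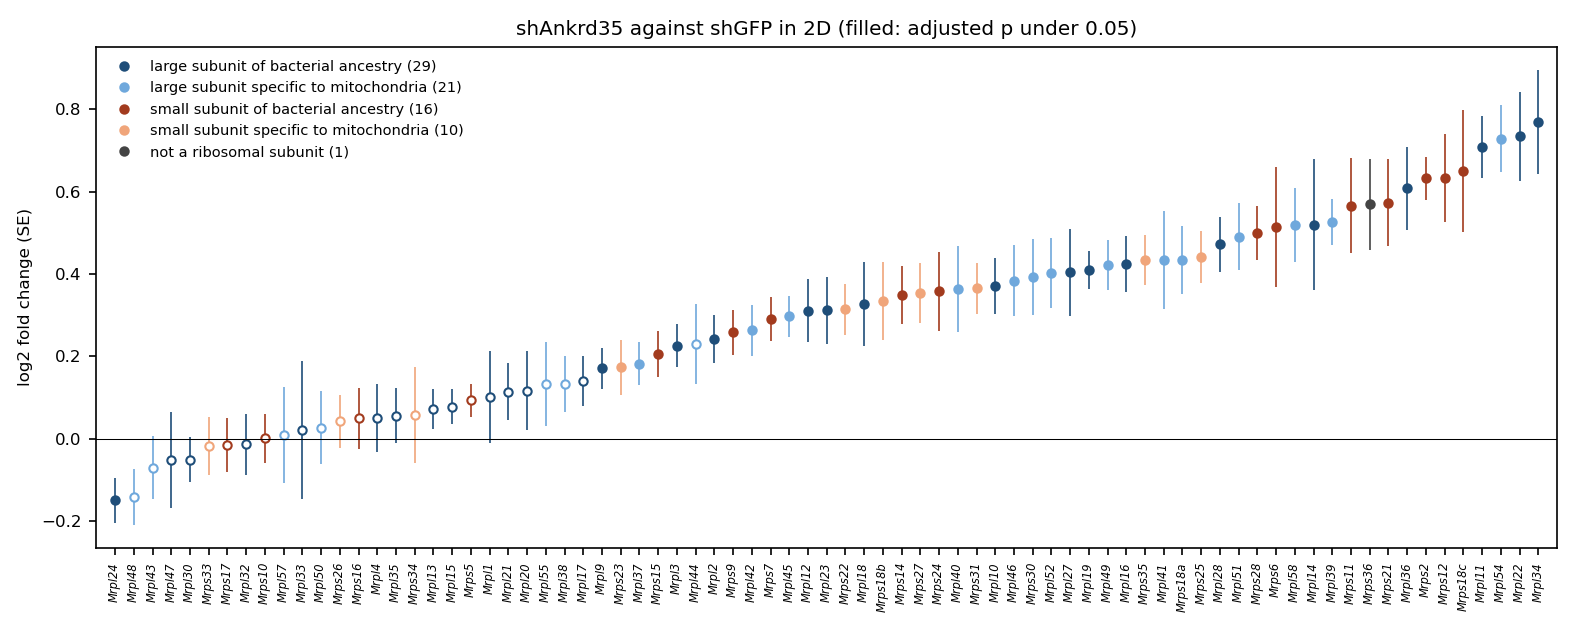
Log2 fold change (vertical axis, bars 1 SE) of shAnkrd35 against shGFP in 2D for the 77 genes in rank order, coloured by subunit and ancestry, filled where the limma adjusted p is under 0.05. The 50 higher genes include every colour class, and Mrpl24 is the filled point below 0.

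The summed level of the 77 genes was 2529, 2382, 2421 and 2442 CPM in the 2D shGFP libraries and 2657, 3123, 3067 and 2987 CPM in the 2D shAnkrd35 libraries. These groups did not overlap, and shAnkrd35 replicate 1 lay nearest to the controls. In 3D the sums were 2496 ± 40.8 CPM (SD, n = 4) with shGFP and 2571 ± 91.3 CPM (SD, n = 4) with shAnkrd35, and the 2 ranges overlapped. The summed level of large subunit genes stood to that of small subunit genes in a ratio of 2.37 ± 0.04 in 2D shGFP, 2.32 ± 0.02 in 2D shAnkrd35, 2.31 ± 0.01 in 3D shGFP and 2.33 ± 0.04 in 3D shAnkrd35 (SD, n = 4 each).

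**Figure D2:**
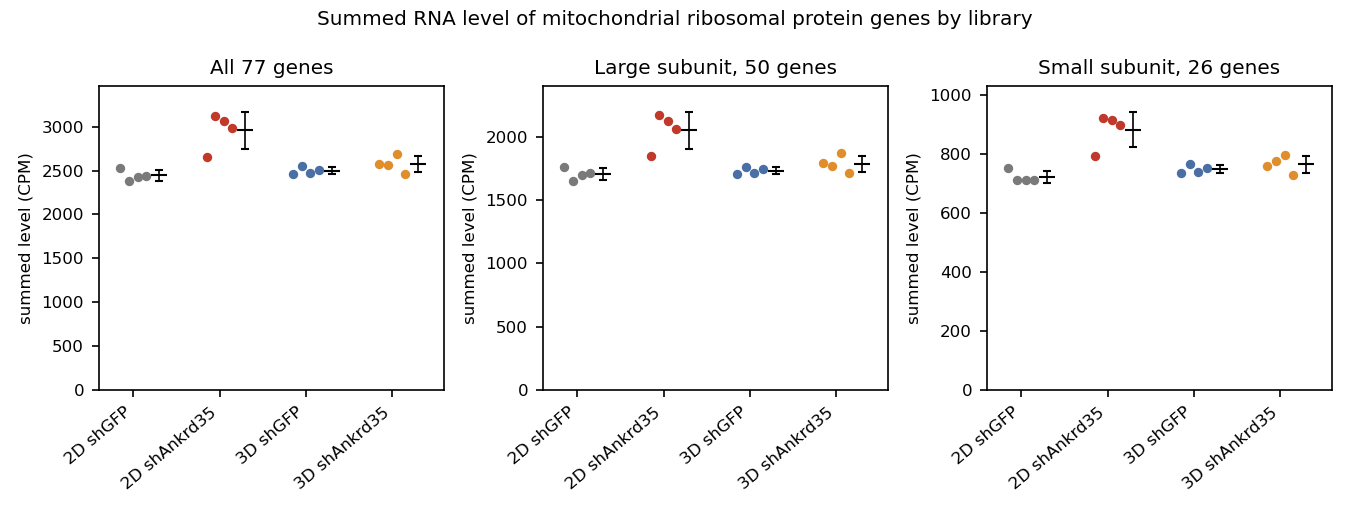
Summed level in CPM (vertical axes, from 0) of all 77 genes, the 50 large subunit genes and the 26 small subunit genes in each library, with the mean and SD of each group of 4. In all 3 panels 3 of the 4 libraries of 2D shAnkrd35 lie above every other library.

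Coordinates are those of the GENCODE annotation of mm10. Among small subunit genes, Mrps2 (chr2:28468066-28471178, plus strand), a protein of bacterial ancestry, had the smallest p in 2D. Its level was 29.6, 26.4, 27.9 and 27.3 CPM in shGFP and 39.3, 45.6, 44.7 and 43.1 CPM in shAnkrd35. The groups were far apart, and the 1.55-fold rise had a log2 fold change of 0.63 ± 0.05 (SE, limma adjusted p = 4.78e-08). Mrps28 rose 1.41-fold from 14.1 ± 0.88 CPM in shGFP (SD, n = 4; log2 fold change 0.50, limma adjusted p = 9.59e-06). Mrps35, a protein specific to mitochondria, rose 1.35-fold from 36.0 ± 1.87 CPM (SD, n = 4; log2 fold change 0.43, limma adjusted p = 1.45e-05). Mrps22, Mrps25, Mrps27 and Mrps31, also specific to mitochondria, rose with log2 fold changes of 0.31, 0.44, 0.35 and 0.36 (limma adjusted p at most 0.000576).

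Of the large subunit, Mrpl11 (chr19:4962147-4966999, plus strand), a protein of the stalk base where translation factors dock, was at 30.6, 28.6, 27.6 and 31.0 CPM in 2D shGFP and at 40.8, 51.6, 54.1 and 47.0 CPM in 2D shAnkrd35. All 4 shAnkrd35 libraries were above all controls, with a log2 fold change of 0.71 ± 0.07 (SE, limma adjusted p = 8.6e-07). Mrpl39 (chr16:84717576-84735742, minus strand), specific to mitochondria, was at 37.9, 35.8, 35.6 and 35.5 CPM in shGFP and at 46.7, 54.6, 53.8 and 53.8 CPM in shAnkrd35 (log2 fold change 0.53 ± 0.06 SE, limma adjusted p = 8.41e-07). Replicate 1 of shAnkrd35 was again the lowest of its group and still above every control. Mrpl22 (chr11:58171661-58179565, plus strand), which lines the exit tunnel of the new chain, was at 13.4, 10.2, 11.9 and 11.2 CPM in shGFP and at 15.1, 20.7, 21.9 and 20.7 CPM in shAnkrd35. Its 1.66-fold rise (log2 fold change 0.73 ± 0.11 SE, limma adjusted p = 2.81e-05) again left no overlap.

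Mrpl34 had the highest fold change of the members, from 28.8, 27.3, 23.3 and 27.6 CPM to 31.4, 50.2, 52.3 and 52.2 CPM. Replicate 1 lay close to the controls while the other 3 libraries were near 50 CPM (log2 fold change 0.77 ± 0.13 SE, limma adjusted p = 0.000101). Mrpl54, specific to mitochondria, rose from 19.9 ± 1.38 to 33.2 ± 3.66 CPM (SD, n = 4; log2 fold change 0.73, limma adjusted p = 1.51e-06). Mrpl19 rose from 34.7 ± 1.73 to 46.1 ± 0.77 CPM (0.41, limma adjusted p = 1.82e-06), and Mrpl28 from 63.4 ± 3.04 to 88.3 ± 9.29 CPM (0.47, limma adjusted p = 1.86e-05).

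Mrps18a and Mrps30 have small subunit symbols but sit in the large subunit, and both were higher in 2D (log2 fold changes 0.43 and 0.39, limma adjusted p = 0.00033 and 0.00172). Mrps36, the member outside the ribosome, was at 16.9, 19.0, 15.4 and 17.9 CPM in shGFP and 18.8, 27.8, 28.2 and 29.3 CPM in shAnkrd35. It was called higher (0.57, limma adjusted p = 0.000411) although replicate 1 of shAnkrd35 fell within the control range. Mrpl12, the mobile stalk protein, was higher by 0.31 (limma adjusted p = 0.00226).

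Mrpl24 (chr3:87919506-87923672, plus strand) moved the other way. Its level was 50.8, 51.1, 49.2 and 46.6 CPM in 2D shGFP and 44.6, 44.6, 43.8 and 45.0 CPM in 2D shAnkrd35. All shAnkrd35 libraries were below all controls, and the change was small (log2 fold change -0.15 ± 0.06 SE, limma adjusted p = 0.0264). The call was lost without 2D shGFP replicate 1 or 2 or 2D shAnkrd35 replicate 3 (limma adjusted p = 0.06 to 0.0702). A further 26 members had no call in 2D, among them Mrpl13, the most abundant, and Mrpl32, whose processing by a protease is a step of ribosome assembly (log2 fold changes 0.07 and -0.01).

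**Figure D3:**
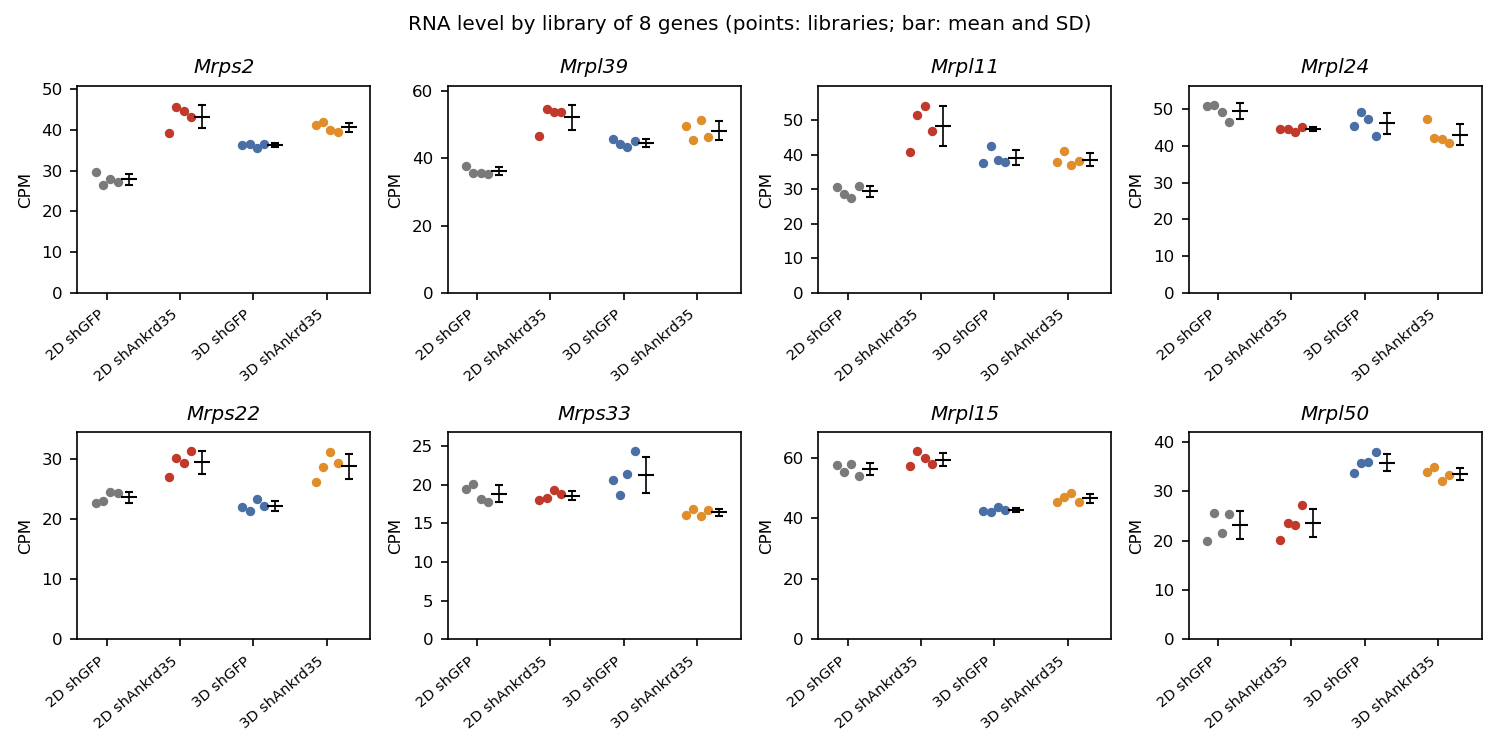
Level in CPM (vertical axes, from 0) of 8 genes in each of the 16 libraries, as points by group, with the mean and SD beside them. Mrps2, Mrpl39 and Mrpl11 are higher in 2D shAnkrd35 than in 2D shGFP without overlap, Mrpl24 is lower, Mrps22 is higher and Mrps33 lower in 3D shAnkrd35, and Mrpl15 falls and Mrpl50 rises from 2D to 3D.

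Library composition moved with the same comparison. The slope of each library's log2 values on gene GC content, per 10 percentage points, was -0.11 to 0.32 in 2D shGFP, 0.28 to 0.57 in 2D shAnkrd35, -0.32 to -0.25 in 3D shGFP and -0.29 to -0.14 in 3D shAnkrd35. Across 12217 genes, the 2D fold change had a Spearman rho of 0.40 with GC content and -0.32 with exonic length, as a description. The 50 members called higher had a median GC content of 52.0% and 1974 exonic bases, and the other 27 had 48.5% and 3226 bases. When a smooth trend with GC content and length was removed from each library, 38 members were higher (26.3% of all genes) and 5 lower (29.9%), with a median log2 fold change of 0.15. Under both versions 32 of 77 members were higher, among them Mrps2 (0.51), Mrpl11 (0.60), Mrpl22 (0.42) and Mrpl39 (0.41, all after removal). Over all genes, 3575 of 12320 were higher as deposited, and 2438 of 12217 were higher under both versions. Another 18 members lost their call, including Mrpl12 (0.00), Mrps28 (0.09), Mrpl18 (0.02) and Mrpl2 (-0.11). Mrpl32 gained one (0.47, limma adjusted p = 0.00186). Whether the trend is technical was not tested.

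**Figure D4:**
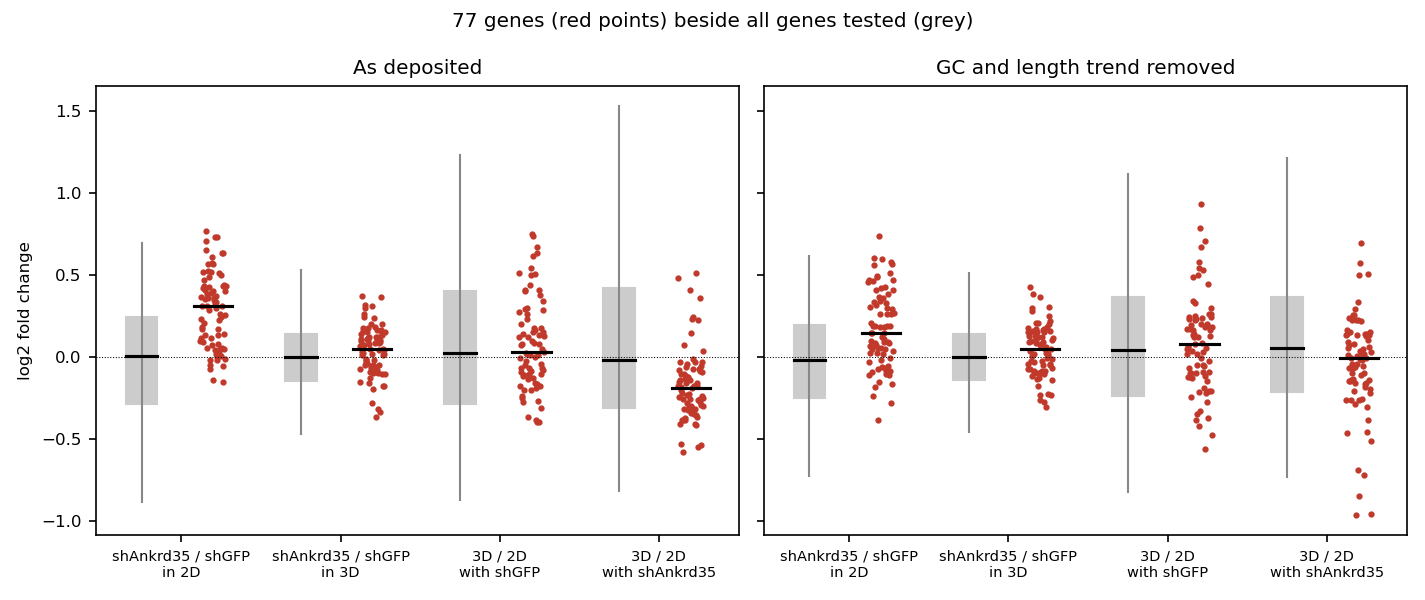
Log2 fold changes (vertical axis) of the 77 genes (red points, black bar at the median) beside all genes tested (grey: box from the 25th to the 75th percentile, line from the 5th to the 95th, black bar at the median), as deposited (left) and after removal of the GC and length trend (right). The members' median in 2D is 0.31 on the left and 0.15 on the right, and for 3D against 2D with shAnkrd35 it is -0.19 and -0.01.

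Nuclear genes of the respiratory chain were mostly higher in 2D. Of 74, 63 were higher and 1 lower (median log2 fold change 0.43), beside 29.0% and 28.8% of all genes, and 50 were higher and 8 lower after removal of the trend (median 0.26), beside 26.3% and 29.9%. Of 82 cytosolic ribosomal protein genes, 31 were higher and 3 lower, which became 10 and 30 after removal. Of 13 genes of mitochondrial DNA, 3 were higher and 1 lower, which became 8 and 0 after removal. These 13 were taken by symbol whatever their product, with 67 to 1824 exonic bases, so they are not all messages that this ribosome translates. No test compared these lists with the members.

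In 3D the hairpin comparison called few members. With shAnkrd35, 11 of 77 were higher (14.3%, against 15.0% of all genes) and 4 were lower (5.2%, against 14.6%), with a median log2 fold change of 0.05. Groups did not overlap for 12 higher members (18.8% of all genes) and 7 lower ones (19.4%). The shares are near or below the background, and single libraries moved them. The higher count fell to 6 without 3D shGFP replicate 1 or 3 or 3D shAnkrd35 replicate 1 or 3, and to 7 without 3D shGFP replicate 4. The lower count fell to 2 without 3D shGFP replicate 4 or 3D shAnkrd35 replicate 3 or 4, and to 3 without any other library. After removal of the GC and length trend 16 were higher (16.4% of all genes) and 6 lower (17.4%). Of the genes of mitochondrial DNA 8 of 13 were higher in 3D with shAnkrd35 and 0 lower, with 12 of 74 nuclear respiratory chain genes higher and 1 lower.

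Mrps22 (chr9:98588730-98601660, minus strand), a small subunit protein whose human gene is known from inherited defects of mitochondrial translation, led the higher members in 3D. It was at 22.0, 21.3, 23.3 and 22.1 CPM in 3D shGFP and 26.2, 28.6, 31.2 and 29.3 CPM in 3D shAnkrd35, with no overlap (log2 fold change 0.37 ± 0.06 SE, limma adjusted p = 0.000216). Mrpl19 was at 30.9, 31.6, 32.1 and 33.6 CPM against 37.9, 37.7, 38.5 and 39.9 CPM (0.27 ± 0.05 SE, limma adjusted p = 0.000346). These groups did not overlap either. Mrpl12 was at 34.4, 35.8, 33.0 and 37.8 CPM in shGFP and 44.9, 42.1, 51.3 and 44.1 CPM in shAnkrd35 (0.37, limma adjusted p = 0.00134), again without overlap.

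Mrps5 rose from 49.2 ± 1.82 to 54.9 ± 0.40 CPM in 3D (SD, n = 4; log2 fold change 0.16, limma adjusted p = 0.00668), and Mrps27 from 21.6 ± 2.04 to 25.5 ± 1.51 CPM (0.24, limma adjusted p = 0.0174). The members higher with shAnkrd35 in both growth types numbered 8, namely Mrpl12, Mrpl19, Mrpl54, Mrps2, Mrps22, Mrps27, Mrps35 and Mrps36. They made up 16% of the 50 members higher in 2D, near the 14.3% of all 77 members that were higher in 3D. They made up 72.7% of the 11 higher in 3D, near the 64.9% of all 77 that were higher in 2D. The share of all genes higher in both growth types was not counted. In 3D, leaving out 1 of 8 libraries ended the call of Mrpl54 in 5 of 8 fits, Mrps2 in 3, Mrps27 in 2, Mrps35 in 4 and Mrps36 in 7, with limma adjusted p values of up to 0.126 for Mrpl54.

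With shAnkrd35, 4 members fell in 3D, 3 of the large subunit and Mrps33 of the small. Mrps33 (chr6:39801804-39810988, minus strand) was at 20.6, 18.7, 21.4 and 24.4 CPM in 3D shGFP and 16.06, 16.93, 15.998 and 16.79 CPM in 3D shAnkrd35. The shGFP libraries were all higher, and the log2 fold change was -0.36 ± 0.07 (SE, limma adjusted p = 0.000931). Mrpl48 was at 28.5, 28.4, 27.4 and 28.6 CPM against 23.6, 22.6, 23.2 and 23.5 CPM, a gap wider than the range within either group (-0.28, limma adjusted p = 0.00499). Mrpl17 (-0.18, limma adjusted p = 0.0359) lost its call without any of 7 of the 8 libraries (all but 3D shGFP replicate 1), and Mrpl57 (-0.33, limma adjusted p = 0.0406) without 3D shGFP replicate 1, 2 or 4 or 3D shAnkrd35 replicate 3 or 4.

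The hairpin effect itself differed between growth types. Tested as the 3D log2 fold change minus the 2D one, 29 members had a lower effect in 3D (37.7%, against 18.6% of all genes) and 0 a higher one (17.1% of all genes), at a median difference of -0.23. At an unadjusted p under 0.05 limma gave 41 and 0. At an adjusted p under 0.05, limma with voom weights on the recovered reads gave 28 and 0. For these 2 settings no count over all genes was made, so they have no background share. Removal of the GC and length trend gave 25 (17.1% of all genes) and 5 (19.0%) at an adjusted p under 0.05. The count of 29 rose to 45 without 2D shAnkrd35 replicate 1 and fell to 22 without 2D shAnkrd35 replicate 2. Mrpl22 had a difference of -0.83 ± 0.15 (SE, limma adjusted p = 0.00074), from 0.73 in 2D to -0.09 in 3D. Its level in 3D was 16.5, 17.1, 16.8 and 15.9 CPM with shGFP and 15.5, 17.0, 16.1 and 13.8 CPM with shAnkrd35, with overlap.

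Mrpl11 differed by -0.73 (limma adjusted p = 0.000104), and its 3D levels were 39.1 ± 2.22 CPM with shGFP and 38.6 ± 1.85 CPM with shAnkrd35 (SD, n = 4). Mrps31 differed by -0.52, with a rise of 0.36 in 2D and a 3D value of -0.15 that was not called (limma adjusted p = 0.000383 for the difference). Mrps2 (-0.47), Mrps25 (-0.43) and Mrpl39 (-0.42) also had smaller effects in 3D, with limma adjusted p = 0.000211, 0.00165 and 0.000889. For Mrps22 and Mrpl12, whose effects were of like size in both growth types, the difference was 0.06 ± 0.09 and 0.06 ± 0.11 (SE) and was not called, though after removal of the trend it was 0.31 for Mrpl12 (limma adjusted p = 0.00593).

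**Figure D5:**
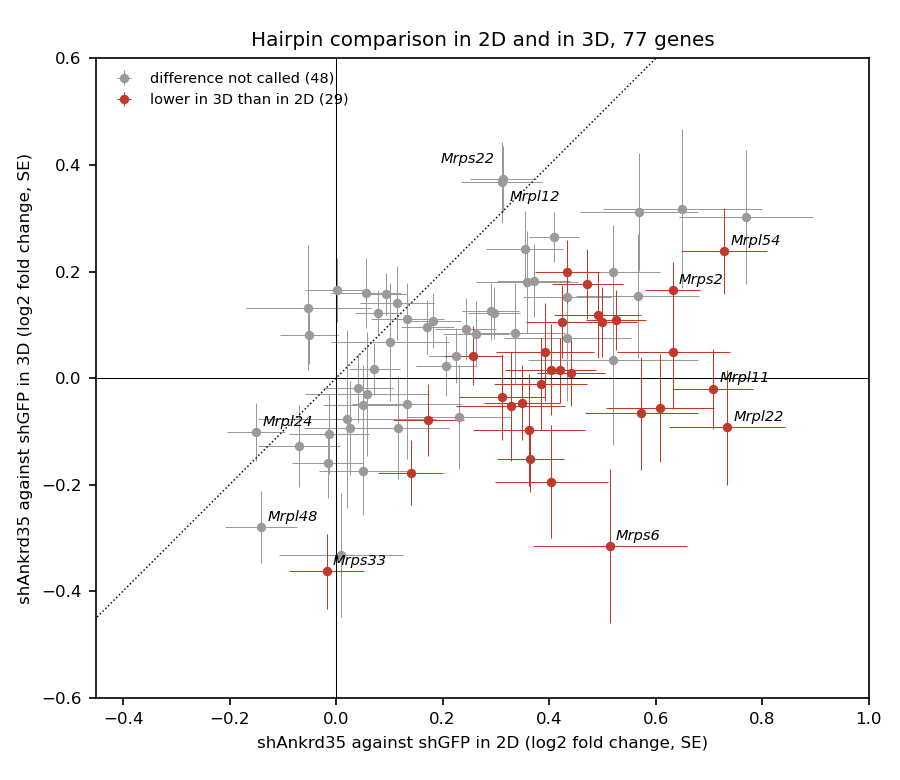
Log2 fold change of shAnkrd35 against shGFP in 2D (horizontal axis) and in 3D (vertical axis) for the 77 genes, bars 1 SE, dotted line at equal change. Red points are the 29 genes with a lower effect in 3D (limma adjusted p under 0.05), which lie below the dotted line, and no gene was called the other way.

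With shGFP, growth in 3D raised some members and lowered others, both at smaller shares than over all genes as deposited. Of 77, 23 were higher in 3D (29.9%, against 35.2% of all genes) and 15 lower (19.5%, against 32.1%), with a median log2 fold change of 0.03. Growth groups did not overlap for 24 higher members (33.3% of all genes) and 14 lower ones (31.6%). With each library shifted to an equal median of all genes the split became 19 higher and 23 lower. After removal of the GC and length trend it was 29 higher (37.4%) and 14 lower (30.2%). Cytosolic ribosomal protein genes, for comparison, had 0 of 82 higher and 66 lower (median -0.49).

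Mrpl27 (chr11:94653767-94660089, plus strand), a large subunit protein of bacterial ancestry, had the largest rise of the members with shGFP. It was at 12.4, 12.6, 13.6 and 13.2 CPM in 2D and 21.9, 21.9, 20.4 and 22.9 CPM in 3D, a 1.68-fold rise with no overlap (log2 fold change 0.75, limma adjusted p = 8.91e-06). Mrpl54 rose from 19.9 ± 1.38 to 33.2 ± 1.49 CPM (SD, n = 4; 0.74, limma adjusted p = 5.37e-07). Mrpl50 (chr4:49512596-49521093, minus strand), specific to mitochondria, was at 19.9, 25.6, 21.6 and 25.3 CPM in 2D and 33.7, 35.6, 35.8 and 37.8 CPM in 3D. All 3D libraries were higher, by 0.64 on the log2 scale (limma adjusted p = 7.45e-06), and by 0.18 after removal of the GC and length trend. Mrpl18 (0.61), Mrpl48 (0.55), Mrpl42 (0.41) and Mrps2 (0.38) rose as well.

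Mrpl15 (chr1:4773206-4785739, minus strand) led the members that fell in 3D with shGFP, from 57.8, 55.5, 58.1 and 54.0 CPM to 42.5, 42.2, 43.8 and 42.7 CPM. No library of either group overlapped the other (log2 fold change -0.40 ± 0.04 SE, limma adjusted p = 3.68e-07). Mrpl2, which lies near the catalytic centre, fell from 69.1 ± 3.84 to 52.5 ± 2.82 CPM (SD, n = 4; -0.40, limma adjusted p = 1.3e-05), and Mrpl38 from 76.3 ± 5.29 to 58.4 ± 1.67 CPM (-0.38, limma adjusted p = 9.96e-05). Mrpl30 fell to 47.2 ± 2.02 CPM in 3D (SD, n = 4; -0.36, limma adjusted p = 1.9e-05). Mrpl13, Mrps5, Mrps27 and Mrpl12 fell by 0.20, 0.25, 0.27 and 0.31 on the log2 scale. Of 29 large subunit genes of bacterial ancestry 8 were higher (27.6%) and 9 lower (31.0%), and of 21 specific to mitochondria 8 were higher (38.1%) and 1 lower (4.8%), beside 35.2% and 32.1% of all genes. No test compared the classes.

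With shAnkrd35, growth in 3D lowered more members than it raised. Of 77, 41 were lower (53.2%, against 36.0% of all genes) and 6 higher (7.8%, against 34.4%), with a median log2 fold change of -0.19. Groups did not overlap for 6 higher members (29.9% of all genes) and 20 lower ones (29.3%). After removal of the GC and length trend, 22 were lower (28.0% of all genes) and 16 higher (38.4%), with a median of -0.01. This comparison uses the same 2D shAnkrd35 libraries as the hairpin comparison in 2D, so the values are not independent of it. Mrpl2 was at 87.7, 81.8, 84.1 and 73.8 CPM in 2D and 56.3, 58.3, 54.9 and 54.0 CPM in 3D (-0.55 ± 0.06 SE, limma adjusted p = 3.6e-07). Mrpl28 was at 76.3, 98.9, 88.3 and 89.5 CPM in 2D and 61.9, 57.1, 63.4 and 61.1 CPM in 3D (-0.53 ± 0.07 SE, limma adjusted p = 2.55e-06). Neither gene had overlapping groups. When the GC and length trend was removed the values were -0.16 for Mrpl2 (limma adjusted p = 0.176) and -0.14 for Mrpl28 (limma adjusted p = 0.0285).

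The members that fell in 3D with both hairpins numbered 12, and their log2 fold changes with shGFP and shAnkrd35 were -0.40 and -0.35 for Mrpl15, -0.36 and -0.23 for Mrpl30 and -0.25 and -0.18 for Mrps5. Another 5 rose with both, namely Mrpl1, Mrpl42, Mrpl48, Mrpl50 and Mrpl54, with values of 0.51 and 0.48 for Mrpl1 and 0.64 and 0.52 for Mrpl50. Mrpl1 was at 25.7, 26.6, 26.2 and 31.9 CPM in 3D shAnkrd35 and at 21.0, 18.6, 18.9 and 20.2 CPM in 2D, without overlap. After removal of the trend its value with shAnkrd35 turned to -0.26 (limma adjusted p = 0.00456), and Mrpl42 and Mrpl50 lost their calls with shAnkrd35. A further 5 members were higher in 3D with shGFP and lower in 3D with shAnkrd35. Of these Mrpl11 had values of 0.41 and -0.32, Mrpl22 of 0.51 and -0.32, Mrps31 of 0.27 and -0.24 and Mrps33 of 0.17 and -0.18, and the remaining one was Mrpl49. Mrpl22 lost its call with shAnkrd35 without 2D shAnkrd35 replicate 3 or 3D shAnkrd35 replicate 4, and the Mrps33 rise with shGFP was lost in 6 of the 8 fits that left out 1 library and its fall with shAnkrd35 in 4 of 8. None of these 5 kept both calls after removal of the trend: Mrpl11, Mrpl22 and Mrpl49 lost the fall, and Mrps31 and Mrps33 lost the rise. No comparison called Mrpl32, Mrpl33, Mrpl43, Mrpl44 or Mrps34. The share of all genes with each of these patterns of calls was not counted, so none of these counts marks the members out. Taken singly, the 3D comparisons called 32.1% (shGFP) and 36.0% (shAnkrd35) of all genes lower. They called 35.2% and 34.4% of all genes higher.

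Other genes of the pathway were counted in the same way, and their counts are to be read beside the shares of all genes, 29.0% higher and 28.8% lower in 2D (26.3% and 29.9% after removal of the GC and length trend) and 15.0% and 14.6% in 3D. No list was tested against all genes. Some proteins of the mitochondrial ribosome carry other symbols. Of 5 such genes 3 were higher in 2D with shAnkrd35 and 0 lower, namely Dap3, a small subunit protein (90.3 ± 4.34 to 118 ± 4.34 CPM, SD, n = 4; log2 fold change 0.38, limma adjusted p = 2.33e-06), Gadd45gip1 of the large subunit (0.66) and Aurkaip1 of the small subunit (0.21). Dap3 was higher in 3D too (0.15), where Aurkaip1 was lower (-0.19). Of 14 translation factors and activators, 6 were higher in 2D (42.9%) and 3 lower (21.4%), and 5 and 2 after removal of the trend. Tsfm, which recycles the elongation factor Tufm, rose by 0.55, Tufm itself, which brings tRNA to the ribosome, by 0.31 and Gfm1, the translocation factor, by 0.33. In 3D 3 of 14 were higher and 0 lower, with Gfm2 at 0.29, Tufm at 0.21 and Gfm1 at 0.20.

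Of 26 genes for ribosome assembly and rRNA modification, 12 were higher in 2D (46.2%) and 2 lower (7.7%). Mterf4, which brings the rRNA methylase Nsun4 to the large subunit, rose by 0.68, Rpusd4 by 0.36, and Mterf3 fell by 0.58 on the log2 scale. After removal of the GC and length trend, 8 were higher and 5 lower. In 3D the hairpin comparison called 1 of 26 higher, Noa1 (0.30), and 1 lower, Mtg1 (-0.41). Of 12 genes for membrane insertion and protein quality control, 6 were higher and 4 lower in 2D, and 3 and 4 after removal. The protease Lonp1 fell by 0.61 (limma adjusted p = 1.52e-07), the prohibitin Phb rose by 0.51 and the protease subunit Spg7, which with Afg3l2 matures Mrpl32, rose by 0.45.

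Of 11 genes for mitochondrial DNA transcription and upkeep, 2 were higher (Twnk 0.19, Polrmt 0.29) and 2 lower (Polg -0.32, Tfam -0.16), 18.2% each way, and 3 and 3 after removal. Of 10 nuclear regulators, 2 were higher and 5 lower, and 2 and 6 after removal. Gabpb1 fell by 0.44 on the log2 scale (limma adjusted p = 8.12e-05), Nrf1 by 0.20 (limma adjusted p = 0.00277) and Yy1 by 0.24 (limma adjusted p = 0.0081). In 3D 3 regulators were higher with shAnkrd35 and 0 lower. Esrra rose by 0.56, and the coactivator Ppargc1a rose from 17.0 ± 1.55 to 33.9 ± 2.25 CPM (SD, n = 4; log2 fold change 0.996, limma adjusted p = 9.21e-07).

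Members with and without a promoter match can be set side by side for the 2D comparison, with no test. Of the 7 with the NRF1 motif 5 were higher (median log2 fold change 0.34), and of the 61 without it 41 were (0.31). Of the 16 with the ETS motif 12 were higher (0.38), and of the 52 without it 34 were (0.29). Of 17 partners that start opposite a member and are in the table, 6 were higher and 1 lower in 2D (median 0.08), beside 29.0% and 28.8% of all genes. Chosen after their values were seen, Psma2, which starts 75 bases from Mrpl32, rose by 0.50 while Mrpl32 was at -0.01, and Zfp661, 128 bases from Mrps5, fell by 0.66 while Mrps5 was at 0.09 (limma adjusted p = 4.17e-05 for Psma2 and 0.000189 for Zfp661).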

How the data were processed

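Poly(A)-enriched RNA of 16 libraries was sequenced. Per the submitters' processing notes, the authors used Trimmomatic 0.38, STAR 2.5.1b, edgeR and the mm10 genome, while the counting program, annotation and strand setting are not stated there. The deposited table holds log2 CPM made by the authors with a prior of 2 reads, as the values themselves show: after removal of the prior, 100% were whole reads within 0.01 in every library, from 13.82 to 28.72 M reads. The table has 0 columns of other samples. The full deposited table was fitted here with limma 3.58.1 in R 4.3.3, with 4 groups taken from the labels, a variance trend and robust fitting, for the 12320 genes at 1 CPM or more in at least 4 libraries. Adjusted p is Benjamini-Hochberg over all genes tested, with a threshold of 0.05, and no overlap means that every library of 1 group lies above every library of the other. A log2 fold change is on the scale of log2 CPM with that prior, which understates the change of low genes. CPM in the text is computed from recovered reads and the authors' effective library sizes.

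Positions, lengths and GC content come from GENCODE's mm10 annotation and promoters from RefSeq. GC and length were known for 12218 genes (99.2% of genes). A smooth trend with both was removed from each library as an alternative. The members, their classes and the other gene lists were chosen with earlier results of these data known. The members named with values were, per comparison, up to 8 each way with the smallest p among those called (6 for the difference of hairpin effects), the 3 highest and lowest per length, up to 6 that went against the majority, Mrps36, Mrps18a, Mrps30, Mrpl12 and Mrpl32, with up to 3 genes per pathway list. Libraries with the same number in different groups did not deviate together (8 of 24 pairs with a correlation over 0.1, range -0.48 to 0.21), so replicate numbers were treated as unpaired. Other alternatives were scaling, filters, the prior, the variance model, single groups, each library left out and, added after the data were seen, limma with voom weights on the recovered reads. The pipeline was tested on simulated data.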

Additional observations from a re-analysis of the deposited data

Results flagged for a closer look

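For the 39 members named by rule and the summed level of all 77, 1 library lay far from the other 3 of its group in 12 of 160 groups, and chance gives about 1 in 20 groups. The summed level was in none of the 12. Mrpl39 was at 37.88 CPM in 2D shGFP replicate 1, with the other 3 at 35.47 to 35.76 CPM, and at 46.67 CPM in 2D shAnkrd35 replicate 1, with the others at 53.77 to 54.58 CPM. In the same library Mrps36 was at 18.82 CPM (others 27.82 to 29.27 CPM), Mrpl34 at 31.43 CPM (others 50.16 to 52.35 CPM) and Mrpl22 at 15.1 CPM (others 20.7 to 21.93 CPM). Mrps25 was at 42.25 CPM in 2D shAnkrd35 replicate 3 (others 36.17 to 36.52 CPM). In 2D shGFP, Mrpl42 was at 31.88 CPM in replicate 1 (others 27.98 to 28.17 CPM) and Mrpl32 at 19.74 CPM in replicate 2 (others 17.23 to 17.46 CPM). Mrps23 was at 29.78 CPM in 3D shGFP replicate 4 (others 26.19 to 26.55 CPM). In 3D shAnkrd35, Mrpl54 was at 44.7 CPM (others 37.03 to 38.11 CPM) and Mrps27 at 27.72 CPM (others 24.62 to 24.87 CPM) in replicate 3, and Mrpl1 at 31.91 CPM in replicate 4 (others 25.68 to 26.64 CPM).

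The hairpin effect differed between 3D and 2D for 17 of the members named by rule, all with a lower effect in 3D. For large subunit genes the log2 differences (limma adjusted p) were -0.826 for Mrpl22 (0.00074), -0.729 for Mrpl11 (0.000104), -0.60 for Mrpl27 (0.00626), -0.49 for Mrpl54 (0.00434), -0.417 for Mrpl39 (0.000889), -0.381 for Mrpl18 (0.0495), -0.318 for Mrpl17 (0.0102) and -0.295 for Mrpl28 (0.0236), and -0.344 for Mrps30 (0.0487), which sits in the large subunit. For small subunit genes they were -0.516 for Mrps31 (0.000383), -0.467 for Mrps2 (0.000211), -0.432 for Mrps25 (0.00165), -0.393 for Mrps28 (0.00458), -0.345 for Mrps33 (0.0153), -0.252 for Mrps23 (0.0486), -0.234 for Mrps35 (0.0405) and -0.216 for Mrps9 (0.039). Of the 16 fits that each left out 1 library, the difference was not called in 12 for Mrpl18, 13 for Mrps23, 12 for Mrps30, 11 for Mrps9, 8 for Mrps35 and 2 for Mrpl28 (limma adjusted p of 0.05 to 0.106 in those fits).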

How the results depend on the processing

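With the GC and length trend removed, 5 members were lower in 2D with shAnkrd35 (median 0.15). With shAnkrd35, 3D against 2D then had 16 higher and 22 lower members (median -0.01), and the difference of hairpin effects had 5 higher (median -0.16). Among the members named by rule, called values that turned their sign were Mrpl2 (-0.11) and Mrps23 (-0.10) in 2D, Mrps33 (-0.05) for 3D against 2D with shGFP, Mrps18a (0.03), Mrpl1 (-0.26), Mrpl12 (0.11) and Mrps28 (0.13) for 3D against 2D with shAnkrd35, and Mrps23 (0.02) for the difference. Of the other members, Mrpl52 was called both ways for 3D against 2D with shAnkrd35 (-0.24 as deposited, 0.15 after removal). With the replicate block as well, the same values came out to 2 decimals, with 21 lower for 3D against 2D with shAnkrd35 and 19 lower for the difference. The replicate block alone gave 49 higher and 1 lower in 2D, 8 and 3 in 3D, 22 and 13 with shGFP, 7 and 40 with shAnkrd35 and 0 and 27 for the difference, and 6 of 16 libraries correlated best with their own number. With an equal median of all genes, 0 members were lower in 2D and 2 in 3D, 23 were lower for 3D against 2D with shGFP (median -0.04) and the median with shAnkrd35 was -0.28, where the median of all genes moved to -0.11. Upper-quartile scaling gave 0 lower in 2D and 2 in 3D, and a fit on the 2 groups compared gave 8 lower in 3D. Without both 2D libraries numbered 1, the difference had 1 higher and 47 lower (median -0.32). The cause was not tested for any of these.

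Leaving out each library in turn gave 49 to 55 higher and 0 to 1 lower in 2D, 6 to 14 higher and 2 to 3 lower in 3D, 21 to 23 higher and 12 to 15 lower with shGFP, 5 to 7 higher and 36 to 53 lower with shAnkrd35, and 22 to 45 lower for the difference. Over the members named and all alternatives, 3977 of 4329 values were counted as unchanged. Another 226 lost a call, 110 gained one with the same sign, and 16 that had been called changed sign. A value without a call that changed sign was counted as unchanged even where it gained a call, as Mrpl32 did in 2D after removal of the GC and length trend. The least expressed member, Mrps18c, had 53 reads in the library where it had fewest.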

Other observations

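The genes whose profile over the 16 libraries was most like the median of the members, after group means were removed, were Aprt (Pearson r = 0.977), Mif (0.976), Eef1b2 (0.975), Slc25a1 (0.972) and Edf1 (0.97). Aprt salvages adenine, Mif is a cytokine and tautomerase, Eef1b2 is a cytosolic elongation factor subunit and Slc25a1 exports citrate from mitochondria. The members' own values ran from -0.57 to 0.92 with a median of 0.65, beside -0.08 over all genes. The 16 points share depth and GC slope within a library, so these values are a description.

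With shGFP, pathway genes that changed in 3D by more than any member included Guf1, Lonp1 and Myc, the members running from -0.40 to 0.75 on the log2 scale. They were not the only ones, as genes for mitochondrial DNA transcription and upkeep ran from -0.945 to 1.449. Guf1, a translation factor that binds the ribosome, was at 14.7 ± 4.80 CPM in 2D shGFP and 44.6 ± 3.52 CPM in 3D shGFP (SD, n = 4; log2 fold change 1.65, limma adjusted p = 1.31e-06), and Mtif2, the initiation factor, rose by 0.61 (limma adjusted p = 9.48e-06). Lonp1, the matrix protease, fell from 573 ± 43.2 to 190 ± 6.71 CPM (SD, n = 4; -1.59, limma adjusted p = 1.94e-13). Myc, a regulator of ribosome genes, fell from 158 ± 6.31 to 76.6 ± 7.91 CPM (SD, n = 4; -1.05, limma adjusted p = 1.05e-09). With shAnkrd35 the values were 2.10 for Guf1, 0.84 for Mtif2, -0.77 for Lonp1 and -1.14 for Myc. The fall of Lonp1 was smaller with shAnkrd35, by 0.82 on the log2 scale (limma adjusted p = 1.8e-06 for the difference), and for Myc the difference was -0.09 and not called.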
